A study of Mus musculus with 6 samples.

Results

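The 43 collagen chain genes were followed in mouse leukaemias driven by the fusion oncogene MLL-AF9. They are the rows of the deposited count table whose gene symbol is Col, a type number, the letter a and a chain number, 43 of 33924 gene rows. Members were chosen by this symbol pattern alone. The family and the contrast were put forward with results of these libraries known, Col6a3 among the largest differences, so the chain values in this contrast are a description and support nothing beyond themselves. RNA had been sequenced from 3 LSK-derived libraries (XL44, XL45 and XL46) and 3 GMP-derived libraries (XG5, XG11 and XG19). LSK cells (lineage-negative, Sca-1 and Kit positive) include the haematopoietic stem cells of the marrow, and GMP cells are granulocyte-macrophage progenitors. In both groups, per the labels' protocols, purified marrow cells had been retrovirally transduced with MLL-AF9, expanded in culture, and given with wild-type support marrow to lethally irradiated C57BL/6 mice. Cells taken from the marrow of sick recipients were then kept in medium with SCF, IL-3 and IL-6. The labels do not tie the libraries to separate mice or cultures, give no age or sex, and name no group without the fusion. The p-values below therefore speak only of how these libraries scatter, and that scatter may be technical.

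Collagens are secreted matrix proteins in which chains wind around each other into a triple helix, a fold that needs glycine to recur at a fixed short spacing. Fibrillar chains build the cables of tendon, skin and bone, the type IV chains form the mesh of basement membranes, type VI chains form beaded filaments near cell surfaces, and the FACIT chains sit on the surface of fibrils. In marrow the bulk of collagen is made by stromal and bone-forming cells, while blood cells bind collagen and make some of the minor types.

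The symbols were checked against the coding sequences of the GENCODE M21 annotation. All 43 members held a run of at least 10 consecutive residue triplets that each began with glycine, the shortest run being 28 triplets (Col28a1) and the longest 344 (Col3a1), with a median of 60. Such a run was present in 98 of 21877 coding genes in all, 0.448%. Col5a3 and Col11a2, both fibrillar, had unbroken runs of 337 and 338 triplets, whereas the runs of Col6a3, Col19a1 and Col20a1 were 45, 57 and 32 triplets.

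The libraries held 16640929 to 33885428 counted reads. A count of 0 allows up to 3 reads, which amounts to 0.0885 to 0.18 CPM (read counts per 1e+06 counts), depending on the library; these limits and all intervals cover counting error only. The cell labels were checked with marker genes. All 7 of the haematopoietic markers in the table were above 1 CPM on average, with summed levels of 2482 to 3407 CPM in the LSK-derived group and 3050 to 3540 CPM in the GMP-derived group. Single markers differed between the groups all the same: Kit was higher in the LSK-derived libraries, and Ptprc, Cebpa and Ctsg were lower (log2 fold changes 0.75, -0.68, -0.83 and -0.61). XG5 stood apart from the other 2 GMP-derived libraries in Mpo, the myeloperoxidase of granule-bearing myeloid cells, which was picked out after its values were seen. Its level was 13.8 CPM in XG5, against 316 in XG11 and 500 in XG19. The LSK-derived libraries were higher, at 1415, 795 and 819 CPM in XL44, XL45 and XL46. The groups did not overlap for Mpo, but it did not pass (log2 fold change 1.87, SE 1.06).

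Most of the family was silent or nearly so in both groups. Of the 43 chains, 5 had no read in any library (Col1a2, Col9a2, Col16a1, Col22a1 and Col24a1), 13 had 1 to 9 reads over the 6 libraries, 11 had at least 10 reads but did not pass the filter on low counts, and 14 could be tested. Col6a3, Col19a1, Col20a1, Col7a1 and Col5a3 (5 chains) were lower in the LSK-derived libraries and 1, Col4a2, was higher, by edgeR's quasi-likelihood test at a Benjamini-Hochberg adjusted p below 0.05. The other 8 did not pass. Over all 13406 tested genes 13.9% were lower and 11.8% were higher, and nothing is read from the chains' counts against these shares. The groups did not overlap for 7 of the 14 tested chains, beside 45.4% of all tested genes. The median log2 fold change (always LSK-derived minus GMP-derived) was -0.10 over the 14 chains and 0.01 over all tested genes, and 9 of the 14 were negative. The chains' median was -0.77 without XL46, -0.32 without XG11, -0.28 without XG5 and -0.37 by limma voom. Tested chains are not a sample of the family, since a chain such as Col6a3 passed the filter only through the libraries in which it was abundant. In bulk RNA, fewer cells that express a gene and less RNA in each cell cannot be told apart.

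**Figure D1:**
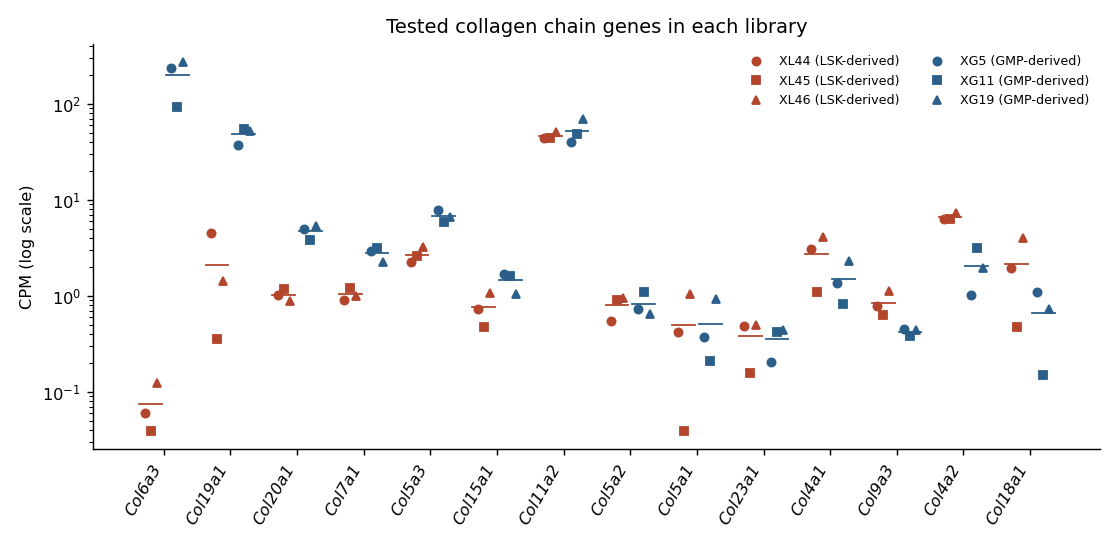
The 14 tested collagen chain genes, with CPM on a log axis, 1 point per library and a bar at each group's mean, LSK-derived (red) left of GMP-derived (blue). Col6a3 lies at 0.0393 to 0.125 CPM in the LSK-derived group and 93.5 to 269 CPM in the GMP-derived group, while the Col11a2 points of both groups share the range of 40.4 to 68.8 CPM.

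The type VI chain Col6a3 held the widest gap. It had 1, 1 and 3 reads in XL44, XL45 and XL46, against 5726, 3150 and 9178 reads in XG5, XG11 and XG19. Its level was 0.0749 ± 0.0446 CPM in the LSK-derived group and 199 ± 93.0 CPM in the GMP-derived group (SD, n = 3 each), a log2 fold change of -11.27 with an approximate SE of 0.74. Every GMP-derived library was far above every LSK-derived one, and XG11 was the lowest of the GMP-derived group. Set over the 5 reads of the LSK-derived group, the ratio of GMP-derived to LSK-derived levels was 2633, with an exact 95% counting interval of 1128 to 8108. That interval covers the counting error of those 5 reads and not the spread between libraries.

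The other beaded-filament chains had few or no reads. Type VI filaments are built from the Col6a1 and Col6a2 chains together with Col6a3 or a related long chain. Col6a1 had no read in the LSK-derived libraries and 1 read in each GMP-derived library, and Col6a2 had no read in the LSK-derived libraries and 1 read in all in the GMP-derived ones; both were singled out after their values were seen. In the GMP-derived libraries Col6a1 was at 0.0293 to 0.0410 CPM and Col6a2 at 0.0293 CPM or less, beside the 93.5 CPM or more of Col6a3. In the LSK-derived libraries a count of 0 allows 0.18 CPM or less. Col6a4, a long chain related to Col6a3, had 0, 0 and 0 reads in the LSK-derived libraries and 2, 22 and 42 in XG5, XG11 and XG19. This is at least 14.45-fold lower in the LSK-derived libraries, counted against 3 reads over that group. The remaining long chains, Col6a5 and Col6a6, did not exceed 3 reads in any library. DESeq2, and edgeR without XG5, called Col6a4 lower, in the direction of Col6a3. By edgeR Col6a4 did not pass with no filter (adjusted p = 0.0881) or without XL44 (0.113), XL45 (0.1) or XL46 (0.124).

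The genes beside Col6a3 on chromosome 1 were read in the same way, using the gene order of RefSeq on GRCm38.p6 with 3 protein-coding genes on each side. Mlph, the next gene, encodes melanophilin, an adaptor that couples pigment granules to a myosin motor. It had 0, 2 and 2 reads in the LSK-derived libraries, against 1891, 842 and 2535 in XG5, XG11 and XG19. Its log2 fold change was -9.82 (SE 0.79; edgeR, Benjamini-Hochberg adjusted p = 0.000957) and XG11 was again the lowest of the GMP-derived libraries. Mlph reads per Col6a3 read were 0.33, 0.267 and 0.276 in XG5, XG11 and XG19. The ratio of its GMP-derived to its LSK-derived level was 974, with a counting interval of 380.5 to 3575 from 4 reads.

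The pattern did not run along the whole stretch. Cops8, a subunit of the COP9 signalosome and the neighbour on the other side, was at 85.5 ± 7.10 CPM in the LSK-derived group and 95.6 ± 4.80 CPM in the GMP-derived group and did not pass. Rab17, a small GTPase gene, was higher in the LSK-derived libraries, at 2.06 ± 0.290 CPM against 0.568 ± 0.262 CPM in the GMP-derived ones (log2 fold change 1.87, SE 0.38). Cxcr7 and Iqca had no read in any library, and Prlh had 4 reads in all. Over the 5 lower chains together, 15 neighbouring genes could be tested: 3 were lower (Mlph, Ubl5 and Pfkfb4), 2 were higher (Rab17 and A230050P20Rik) and 10 did not pass, beside 13.9% and 11.8% of all tested genes. These neighbours were read because Col6a3 and Mlph had been seen.

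**Figure D2:**
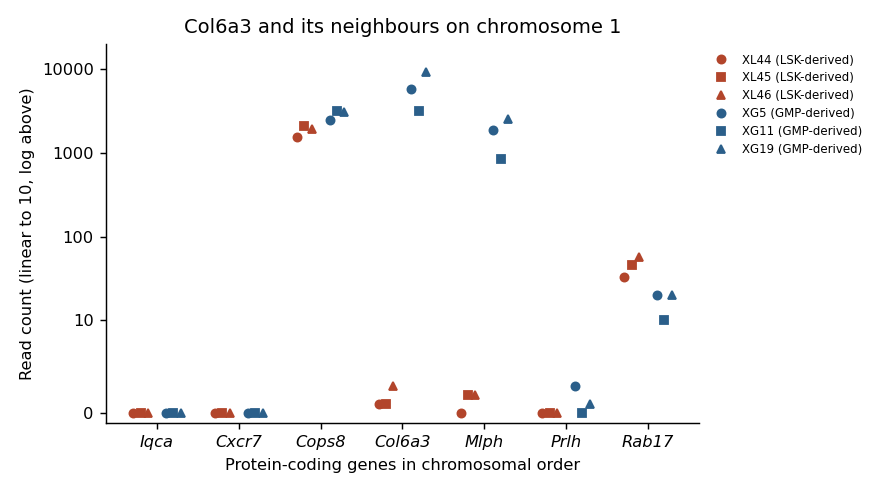
Read counts of Col6a3 and the 3 protein-coding genes on each side in chromosomal order, 1 point per library (LSK-derived red, GMP-derived blue), not scaled for depth, on an axis that is linear to 10 and logarithmic above. Col6a3 and Mlph have at most 3 reads in each LSK-derived library and at least 842 in each GMP-derived one, while the 6 points of Cops8 lie between 1544 and 3211 reads.

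The promoter windows of this pair are shown because their reads moved together. Each runs from 250 bases before to 50 bases after the annotated start, 5′ to 3′ on the gene's own strand, from RefSeq on GRCm38.p6 (Col6a3, chr1:90843922-90844221, minus strand; Mlph, chr1:90914850-90915149, plus strand). Capitals mark motif matches.
Col6a3: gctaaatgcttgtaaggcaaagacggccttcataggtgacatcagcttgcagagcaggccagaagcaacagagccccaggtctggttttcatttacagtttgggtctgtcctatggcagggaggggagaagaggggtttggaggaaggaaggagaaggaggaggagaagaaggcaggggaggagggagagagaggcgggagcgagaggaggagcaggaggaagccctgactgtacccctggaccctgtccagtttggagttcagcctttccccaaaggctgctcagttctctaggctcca
Mlph: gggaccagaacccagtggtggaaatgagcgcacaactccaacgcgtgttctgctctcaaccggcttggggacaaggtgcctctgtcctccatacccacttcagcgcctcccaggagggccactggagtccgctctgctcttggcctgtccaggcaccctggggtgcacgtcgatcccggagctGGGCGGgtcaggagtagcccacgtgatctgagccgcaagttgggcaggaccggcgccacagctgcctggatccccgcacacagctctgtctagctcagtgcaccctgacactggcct
The following 5 motifs were searched on both strands: TATAAA (the TATA box), CCAAT (bound by NF-Y), GGGCGG (the GC box), TGAGTCA (bound by AP-1) and GAGGAAGT (bound by PU.1). The Col6a3 window held none of these strings, and the Mlph window held GGGCGG at position -67 from the start. Among all 32851 windows the shares were 13.6% for TATAAA, 37.4% for CCAAT, 35.7% for GGGCGG, 5.2% for TGAGTCA and 3.2% for GAGGAAGT. The windows were 56.3% (Col6a3) and 64.3% (Mlph) G or C, beside a median of 52.7% over all windows, and held 3 and 15 CG dinucleotides. Of the 43 chains 35 matched this table, with 38 windows, and 23 of those 38 held GGGCGG (60.5%), 5 TATAAA (13.2%), 13 CCAAT (34.2%), 1 TGAGTCA (2.63%) and 0 GAGGAAGT. The members' windows were 59.8% G or C at the median, above the 52.7% of all windows.

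Among the 9 FACIT chains, which decorate the surface of fibrils or lie near basement membranes, 3 could be tested. Col19a1, a chain of the minor type XIX collagen, was at 4.48, 0.353 and 1.42 CPM in XL44, XL45 and XL46, against 37.2, 54.7 and 52.4 CPM in XG5, XG11 and XG19. All GMP-derived libraries were above the LSK-derived ones, and the LSK-derived libraries differed more among themselves than the GMP-derived ones in proportion to their level. It averaged 2.08 ± 2.14 CPM over the LSK-derived and 48.1 ± 9.48 CPM over the GMP-derived libraries (SD, n = 3 each), with a log2 fold change of -4.63 (SE 0.72). XL44 carried most of the LSK-derived signal, and without it the log2 fold change was -5.77.

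Col20a1, a FACIT chain of the less studied type XX, was lower in the LSK-derived libraries at a small level. It was at 1.03, 1.18 and 0.875 CPM there, against 5.0, 3.86 and 5.28 CPM in XG5, XG11 and XG19. The log2 fold change was -2.19 (SE 0.24), and the spread within each group was small beside the gap. Col9a3, a chain of the cartilage FACIT type IX, went the other way: its levels were 0.786, 0.628 and 1.13 CPM in the LSK-derived group and 0.451, 0.386 and 0.440 CPM in the GMP-derived group. The groups did not overlap, but Col9a3 did not pass (log2 fold change 0.99, SE 0.32). An exon of Col9a3 overlaps one of Tcfl5 by 234 bases on the other strand, and Tcfl5 had no read in any library. The partner chains of type IX had 5 reads (Col9a1) and no read (Col9a2) over the 6 libraries. Col9a1 is also the neighbour of Col19a1 on chromosome 1. The tested neighbours of Col19a1, Lmbrd1, Fam135a and 1110058L19Rik, did not pass.

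Of the 11 fibrillar chains, 4 could be tested and 1 was lower. Col5a3, a chain of type V collagen, which joins the larger fibrils and regulates their width, was at 2.24, 2.59 and 3.25 CPM in XL44, XL45 and XL46, against 7.75, 5.85 and 6.57 CPM in XG5, XG11 and XG19. The groups were clearly apart, with a log2 fold change of -1.31 (SE 0.21). Its type V partners did not pass: Col5a1 ranged over 0.0393 to 1.04 CPM in the LSK-derived group and 0.208 to 0.938 CPM in the GMP-derived group (log2 fold change -0.03, SE 0.94). Col5a2 ranged over 0.544 to 0.958 CPM in the LSK-derived group and 0.645 to 1.10 CPM in the GMP-derived group (log2 fold change -0.03, SE 0.34). The wide SE of Col5a1 leaves several-fold differences in either direction undetectable here.

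Col11a2, a fibrillar chain best known from cartilage, was the most abundant chain in the LSK-derived libraries, also per kilobase of exon. It was at 43.8, 43.96 and 51.3 CPM in XL44, XL45 and XL46, against 40.4, 48.3 and 68.8 CPM in XG5, XG11 and XG19. The groups overlapped (log2 fold change -0.18, SE 0.20). The classical fibrillar chains of bone and skin were all but missing. Col1a1 had 0, 1 and 1 reads in the LSK-derived libraries and 1, 8 and 50 in XG5, XG11 and XG19, so that most of its reads came from XG19. Its partner Col1a2 had no read in any library, and Col3a1 had 2 reads in all. Together the type I chains gave no library with reads of both.

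**Figure D3:**
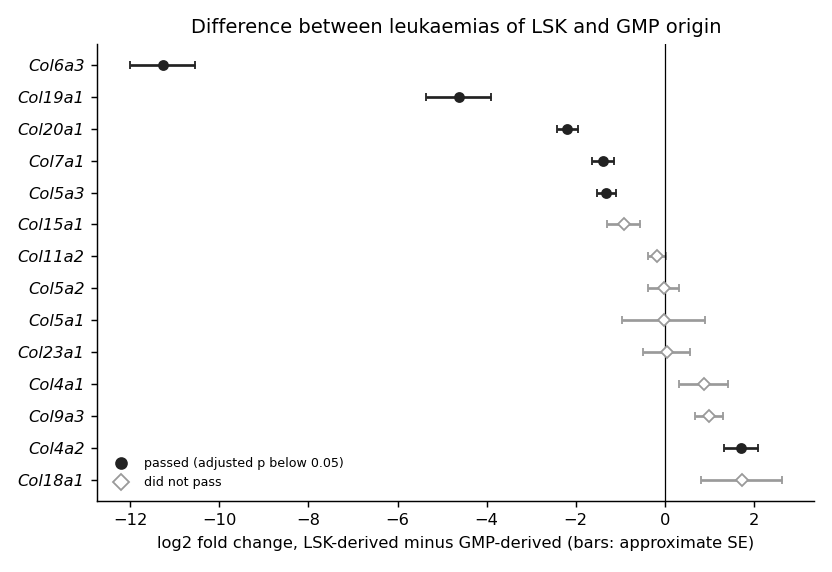
Log2 fold change of each of the 14 tested chains (LSK-derived minus GMP-derived) with bars for the approximate SE; filled circles passed at an adjusted p below 0.05 and open diamonds did not. Col6a3 stands at -11.27 and Col19a1 at -4.63, and Col4a2 is the filled circle on the positive side, at 1.70.

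Col7a1, the single chain of the anchoring fibrils that fasten epidermis to dermis, was at 0.907, 1.22 and 1.00 CPM in the LSK-derived libraries, against 2.91, 3.12 and 2.26 CPM in XG5, XG11 and XG19. The groups did not overlap (log2 fold change -1.39, SE 0.25). The multiplexins Col15a1 and Col18a1, basement membrane chains with interrupted helices that are split into anti-angiogenic fragments, did not pass. Col15a1 was at 0.726, 0.471 and 1.08 CPM in the LSK-derived group and 1.68, 1.60 and 1.06 CPM in the GMP-derived group (log2 fold change -0.92, SE 0.37). Col18a1 was at 1.94, 0.471 and 4.04 CPM in the LSK-derived group and 1.11, 0.148 and 0.733 CPM in the GMP-derived group (log2 fold change 1.72, SE 0.90, and 0.84 without XL46). Both pairs of groups overlapped.

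Transmembrane collagens span the plasma membrane with the helix outside the cell. Col23a1 was the tested member and did not pass, with 0.157 to 0.500 CPM in the LSK-derived group and 0.205 to 0.440 CPM in the GMP-derived group (log2 fold change 0.04, SE 0.52). Col25a1 had 0, 2 and 0 reads in the LSK-derived libraries, against 7, 17 and 3 in XG5, XG11 and XG19. The GMP-derived level was 9.69 times the LSK-derived one, with a counting interval of 2.68 to 80.02. Col13a1 had no read in the LSK-derived libraries and 6, 1 and 3 reads in the GMP-derived ones, and Col17a1 had 2 reads in LSK-derived and 8 in GMP-derived libraries. These 3 chains are too thinly covered for more than their counts. Of the short network-forming chains, Col10a1, the type X chain of cartilage that is turning into bone, had 0, 5 and 1 reads in LSK-derived and 6, 5 and 9 in GMP-derived libraries. Col28a1, which fits none of the larger classes, had 6, 0 and 16 reads in the LSK-derived and 1, 1 and 0 in the GMP-derived libraries, and XL45 had none.

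Of the 6 type IV chains of basement membranes, 2 could be tested, and 1 of them, Col4a2, was higher. The genes lie head to head in pairs on opposite strands: Col4a1 with Col4a2 on chromosome 8, Col4a3 with Col4a4 on chromosome 1, and Col4a5 with Col4a6 on chromosome X. Col4a2 was at 6.35, 6.24 and 7.37 CPM in XL44, XL45 and XL46, against 1.03, 3.12 and 1.94 CPM in XG5, XG11 and XG19. The groups did not overlap and the log2 fold change was 1.70 (SE 0.38). Col4a2 no longer passed without XL44, without XL46 or without XG19. Its partner Col4a1 was at 3.09, 1.10 and 4.08 CPM in the LSK-derived group and 1.35, 0.831 and 2.32 CPM in the GMP-derived group; the groups overlapped (log2 fold change 0.87, SE 0.56). Col4a2 reads per Col4a1 read were 2.06, 5.68 and 1.81 in the LSK-derived libraries and 0.758, 3.75 and 0.835 in XG5, XG11 and XG19. The exons of the pair overlap by 22 bases on opposite strands.

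The X-linked pair was found in 2 of the 3 GMP-derived libraries. Col4a5 had 5, 1 and 1 reads in XL44, XL45 and XL46, against 4, 131 and 104 in XG5, XG11 and XG19. Col4a6 had no read in the LSK-derived libraries or in XG5, and 87 and 20 reads in XG11 and XG19. XG5 thus sat with the LSK-derived libraries for both genes, and Col4a6 reads per Col4a5 read were 0.664 in XG11 and 0.192 in XG19. Over the groups, Col4a5 was 22.4 times higher in the GMP-derived libraries (counting interval 10.85 to 55.6), and Col4a6 was at least 23.3-fold lower in the LSK-derived libraries, counted against 3 reads over that group. Neither passed the filter on low counts with all 6 libraries. Without XG5, Col4a5, Col4a6 and Col6a4 entered the test and passed as lower in the LSK-derived libraries. They also entered without XL44, XL45 or XL46 and with no filter, and passed in none of these edgeR fits. The edgeR adjusted p-values with no filter were 0.11, 0.325 and 0.0881. DESeq2 called Col4a5 and Col6a4 lower but not Col4a6 (DESeq2 adjusted p = 0.192). The pair Col4a3 and Col4a4 showed no such joint pattern, with 2, 6 and 5 reads of Col4a3 in the LSK-derived and 1, 0 and 1 in the GMP-derived libraries, against 0, 0 and 2 reads of Col4a4 in LSK-derived and 7, 3 and 0 in GMP-derived libraries. A transcript on the other strand, C430014B12Rik, overlaps 563 bases of Col4a3 exons.

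**Figure D4:**
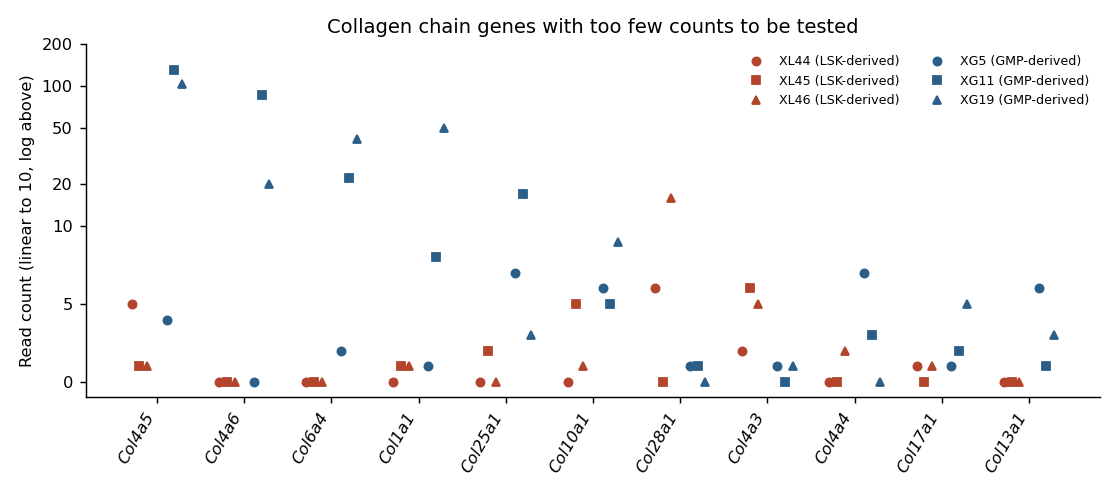
Read counts of the 11 chains with at least 10 reads that did not pass the filter, 1 point per library (LSK-derived red, GMP-derived blue), not scaled for depth, linear to 10 and logarithmic above. Col4a5 and Col4a6 are high in XG11 and XG19 and at 4 and 0 reads in XG5, and Col28a1 has its 22 LSK-derived reads in XL44 and XL46.

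The promoter windows of the X-linked pair are shown for the same reason as those of Col6a3 and Mlph, with the same conventions (Col4a5, chrX:141475169-141475468, plus strand; Col4a6, chrX:141474027-141474326, minus strand).
Col4a5: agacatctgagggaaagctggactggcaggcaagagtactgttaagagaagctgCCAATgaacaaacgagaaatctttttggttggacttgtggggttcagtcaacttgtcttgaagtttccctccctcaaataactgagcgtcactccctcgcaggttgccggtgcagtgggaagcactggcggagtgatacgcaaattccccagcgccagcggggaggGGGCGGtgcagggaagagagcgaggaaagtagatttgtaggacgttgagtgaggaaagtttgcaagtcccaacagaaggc
Col4a6: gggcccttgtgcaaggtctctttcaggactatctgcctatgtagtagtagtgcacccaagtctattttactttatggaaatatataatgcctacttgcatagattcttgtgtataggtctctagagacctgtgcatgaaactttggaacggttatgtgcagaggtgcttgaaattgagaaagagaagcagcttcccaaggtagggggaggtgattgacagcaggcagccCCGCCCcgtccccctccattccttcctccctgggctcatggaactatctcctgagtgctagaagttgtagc
The Col4a5 window held CCAAT at position -196 and GGGCGG at -30, and the Col4a6 window held CCGCCC, the reverse complement of GGGCGG, at -21. The windows were 52.7% (Col4a5) and 48.3% (Col4a6) G or C, with 11 and 3 CG dinucleotides.

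Levels can be set between chains only per length, and on the scale of CPM per kilobase of exon the order differed between the groups. In the LSK-derived libraries Col11a2 led at 6.74, followed by Col4a2 at 1.01, Col5a3 at 0.395 and Col4a1 at 0.369. In the GMP-derived libraries Col6a3 led at 16.6, followed by Col11a2 at 7.63, Col19a1 at 6.99, Col5a3 at 0.987 and Col20a1 at 0.916. Neighbours in these orders such as Col11a2 and Col19a1 in the GMP-derived libraries, at 52.5 ± 14.6 and 48.1 ± 9.48 CPM, lay within each other's spread. The summed level of all chains was 68.2, 60.2 and 79.8 CPM in XL44, XL45 and XL46, against 336.5, 225.6 and 420.1 CPM in XG5, XG11 and XG19. Without Col6a3 the sums were 68.1, 60.1 and 79.7 CPM in the LSK-derived group and 101.8, 132.1 and 151 CPM in the GMP-derived group. Without Col19a1 as well, the groups overlapped, at 63.6, 59.8 and 78.3 CPM in the LSK-derived group and 64.55, 77.4 and 98.7 CPM in the GMP-derived group. Chains above 1 CPM numbered 7, 6 and 9 in the LSK-derived and 10, 11 and 12 in the GMP-derived libraries. No test was run on these sums and numbers.

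Genes that modify, export, bind or degrade collagen were read from the same edgeR fit. Matrix partners of collagen and a list drawn up for proteins with a collagen domain were read with them. That last list holds Ache, which has no collagen domain and is counted among the higher genes below. Of 116 genes listed in 6 groups, 114 were in the table, 22 of them with no read in any library, and 49 could be tested; 7 were higher and 9 lower in the LSK-derived libraries, beside 11.8% and 13.9% of all tested genes. The median log2 fold change of the 49 was -0.03.

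In the group for chain modification and folding, 12 of 20 genes could be tested, with 1 higher, 4 lower and a median log2 fold change of -0.16. P4ha1, a catalytic subunit of the prolyl hydroxylase that stabilises the helix, was at 45.5 ± 5.55 CPM in the LSK-derived group and 74.2 ± 16.6 CPM in the GMP-derived group (log2 fold change -0.71, SE 0.17, edgeR adjusted p = 0.0253). P4ha2, the alternative catalytic subunit, was at 0.342 ± 0.148 CPM in the LSK-derived group and 2.41 ± 1.29 CPM in the GMP-derived group (log2 fold change -2.74, SE 0.50, edgeR adjusted p = 0.0099). The shared subunit P4hb, at 1547 ± 180.2 CPM in the LSK-derived group and 1858 ± 109 CPM in the GMP-derived group, did not pass with all libraries but was lower without XL45 (edgeR adjusted p = 0.0392). Lepre1, which hydroxylates another proline position (12.1 ± 1.39 CPM in the LSK-derived group, 17.9 ± 0.911 CPM in the GMP-derived group), and Tmem38b, an endoplasmic reticulum cation channel needed for normal collagen modification (29.8 ± 6.72 CPM in the LSK-derived group, 49.4 ± 10.1 CPM in the GMP-derived group), were lower. Crtap, a partner of Lepre1 named here to complete the count, was higher. The edgeR adjusted p-values of Lepre1, Tmem38b and Crtap were 0.0169, 0.0395 and 0.0397. P4ha1 no longer passed without XL44 (0.0942) or XL45 (0.0696), nor Lepre1 without XL46 (0.0571) or XG19 (0.0551). Tmem38b no longer passed without XL44 (0.13), XL46 (0.123), XG11 (0.0676) or XG19 (0.0953). Plod1, a lysyl hydroxylase, was at 51.5 ± 20.1 CPM in the LSK-derived group and 78.6 ± 13.4 CPM in the GMP-derived group; it did not pass with all libraries but was lower without XL45 (edgeR adjusted p = 0.00966). Serpinh1, the chaperone dedicated to collagen in matrix-making cells, had no read in any of the 6 libraries.

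In the group for secretion and extracellular processing, 8 of 18 genes in the table could be tested, with 1 higher, 2 lower and a median of -0.06. Adamts3, a protease that cuts the amino-terminal propeptide from procollagen, was at 10.0, 8.95 and 12.3 CPM in XL44, XL45 and XL46, against 0.574, 0.623 and 0.293 CPM in XG5, XG11 and XG19. Its groups were widely apart (log2 fold change 4.39, SE 0.32, edgeR adjusted p = 0.000541). Sec24d, a coat subunit of the vesicles that leave the endoplasmic reticulum, was lower, at 45.8 ± 7.98 CPM in the LSK-derived group and 85.9 ± 3.43 CPM in the GMP-derived group (log2 fold change -0.91, SE 0.13, edgeR adjusted p = 0.0040). Loxl2, an enzyme that cross-links collagen, was lower at 2.04 ± 0.137 CPM in the LSK-derived group and 5.31 ± 0.636 CPM in the GMP-derived group (log2 fold change -1.38, SE 0.19, edgeR adjusted p = 0.00369).

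None of the 7 tested collagen receptors passed by edgeR, where 3 had an unadjusted p below 0.05. DESeq2 and limma voom each called 2, and limma voom with sample weights called 3. By edgeR, 11.8% of all tested genes were higher and 13.9% lower at the adjusted threshold. The share of all tested genes with an unadjusted p below 0.05 was not computed, so nothing is read from that count. The receptors' median log2 fold change was -0.37. The 3 with an unadjusted p below 0.05, named after their values were seen, had groups that did not overlap. The same held for Lair1 and for 45.4% of all tested genes. Itga1, a collagen-binding integrin subunit, was at 31.8 ± 15.98 CPM in the LSK-derived group and 7.12 ± 5.89 CPM in the GMP-derived group (log2 fold change 2.15, SE 0.69). Antxr1, an anthrax toxin receptor that binds collagen, and Itga10, a further integrin subunit, had log2 fold changes of -2.02 (SE 0.62) and -0.71 (SE 0.22). Itgb1, the beta subunit shared by the collagen-binding integrins, was at 345 ± 17.3 CPM in the LSK-derived group and 322 ± 12.97 CPM in the GMP-derived group. Ddr1, a receptor tyrosine kinase for collagen, was at 2.13 ± 0.386 CPM in the LSK-derived group and 3.04 ± 0.638 CPM in the GMP-derived group. Lair1, an inhibitory collagen receptor of leukocytes, was at 61.2 ± 8.597 CPM in the LSK-derived group and 43.6 ± 12.1 CPM in the GMP-derived group.

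Of the 9 tested genes for degradation and its inhibitors, 1 was higher and 1 lower (median 0.16). By edgeR 4 had an unadjusted p below 0.05, and nothing is read from this count, since the share over all tested genes was not computed. DESeq2 called 4, and limma voom with and without sample weights called 1 each. Mmp8 and Mmp9, named after their values were seen, did not pass. Their groups did not overlap, which held for 45.4% of all tested genes. Mmp8 was at 105 ± 66.3 CPM in the LSK-derived group and 16.6 ± 14.1 CPM in the GMP-derived group. Its log2 fold change was 2.65 (SE 0.95). Mmp9 went the other way, at -2.73 (SE 0.91). Mmp13, a collagenase, was at 0.847, 11.8 and 0.625 CPM in XL44, XL45 and XL46, against 0.0410, 0.0594 and 0.205 CPM in XG5, XG11 and XG19. Its log2 fold change was 5.33 (SE 1.48, edgeR adjusted p = 0.0430) and 2.72 without XL45, the library with most of the reads. It no longer passed without XL44 (0.0548), XG5 (0.0962), XG11 (0.119) or XG19 (0.114). Nor did it pass with no filter (0.122), by limma voom (0.113) or by limma voom with sample weights (0.102). DESeq2 gave no adjusted p for Mmp13. The protease Mmp19 was lower, at 28.01 ± 6.90 CPM in the LSK-derived group and 55.6 ± 6.43 CPM in the GMP-derived group (log2 fold change -0.99, SE 0.19, edgeR adjusted p = 0.0113). It no longer passed without XL44 (0.0519).

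Among the matrix partners of collagen 8 of 23 could be tested, with 3 higher, 2 lower and a median of 1.30. Lama5 and Lamc1, chains of laminins, the other network of basement membranes, were higher. Lama5 was at 23.7 ± 5.81 CPM in the LSK-derived group and 2.45 ± 0.403 CPM in the GMP-derived group (log2 fold change 3.28, SE 0.22, edgeR adjusted p = 0.000506). Lamc1 was at 29.8 ± 1.87 CPM in the LSK-derived group and 9.15 ± 2.15 CPM in the GMP-derived group (log2 fold change 1.70, SE 0.18, edgeR adjusted p = 0.00159). Vwf, a blood protein that tethers platelets to collagen, was higher too, at 3.66 ± 0.582 CPM in the LSK-derived group and 0.512 ± 0.270 CPM in the GMP-derived group (edgeR adjusted p = 0.00343). Nid2, a nidogen that bridges laminin and type IV collagen, was lower, at 2.58 ± 1.28 CPM in the LSK-derived group and 16.4 ± 3.24 CPM in the GMP-derived group (log2 fold change -2.69, SE 0.36, edgeR adjusted p = 0.00363). Matn2, a matrilin named here to complete the count, was also lower, at 0.739 ± 0.410 CPM over the LSK-derived and 2.99 ± 0.825 CPM over the GMP-derived libraries (edgeR adjusted p = 0.0146).

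The list drawn up for proteins with a collagen domain that are not named as collagens gave 5 tested genes of 23 in the table. With Ache counted in, 1 was higher and the median was 0.73. The 1 higher gene, Ache, encodes acetylcholinesterase, which has no collagen domain and is anchored by the collagen-tailed ColQ. That median therefore does not describe collagen-domain proteins alone. None of the 4 others passed, and their log2 fold changes had both signs: 1.21 (Emid1), 0.73 (Msr1), -0.99 (Colec12) and -1.19 (Colq). Colq itself, named after its values were seen, was at 0.968, 1.85 and 0.375 CPM in XL44, XL45 and XL46, against 2.05, 3.21 and 2.08 CPM in XG5, XG11 and XG19 (log2 fold change -1.19, SE 0.52, not passed). Ache was at 3.37 ± 3.01 CPM in the LSK-derived group and 0.145 ± 0.0549 CPM in the GMP-derived group (log2 fold change 4.46, SE 0.79, edgeR adjusted p = 0.00963), and at 3.41 on the log2 scale without XL46. The scavenger receptors Msr1 and Colec12 did not pass. Msr1 was at 3.02 ± 1.78 CPM in the LSK-derived group and 1.77 ± 1.63 CPM in the GMP-derived group, and Colec12 was at 2.05 ± 0.819 CPM in the LSK-derived group and 4.01 ± 3.33 CPM in the GMP-derived group. Colec12 was lower without XG5 (edgeR adjusted p = 0.0374).

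**Figure D5:**
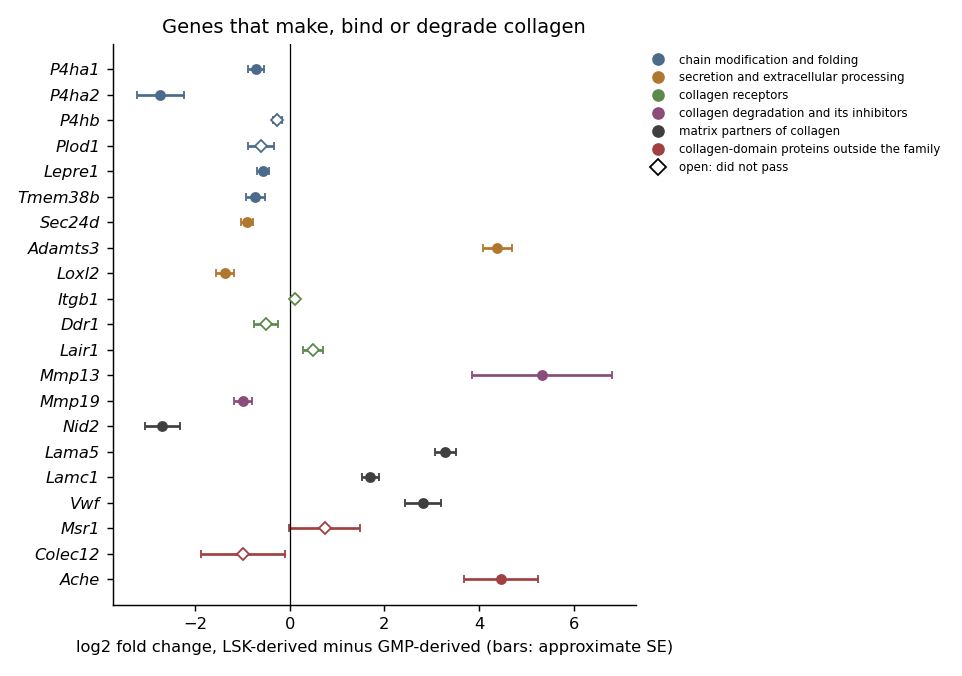
Log2 fold change (LSK-derived minus GMP-derived) of each tested gene that the naming rule took from the lists of genes around collagen. The lists include matrix partners of collagen and Ache, which has no collagen domain. Points are coloured by list, with bars for the approximate SE, and open diamonds did not pass. Mmp13, Ache, Adamts3 and Lama5 lie to the right, between 3.28 and 5.33, and P4ha2 and Nid2 lie to the left, at -2.74 and -2.69.

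Markers of other cell types were read beside the chains. Of 12 stromal and fibroblast markers, 3 had no read (Mfap5, Gas1 and Twist2) and Pdgfra had 1 read; the summed level was 17.5 to 25.6 CPM in the LSK-derived group and 23.8 to 47.8 CPM in the GMP-derived group. Named after their values were seen, Pdgfrb was at 2.48, 4.87 and 0.542 CPM in the LSK-derived group and 36.4, 13.95 and 30.3 CPM in the GMP-derived group, and Acta2 at 0.302, 0.314 and 0.458 CPM in the LSK-derived group and 5.16, 3.65 and 5.04 CPM in the GMP-derived group. Both were lower in the LSK-derived libraries, in the direction of Col6a3. Nes was higher, at 2.99 ± 1.53 CPM in the LSK-derived group and 0.300 ± 0.108 CPM in the GMP-derived group. The other tested stromal markers did not pass. Their log2 fold changes were 1.88 (Thy1), 1.79 (Lepr, whose groups did not overlap), -0.16 (Tagln) and -1.61 (Fbln1). The stromal list thus had no common direction. Of the matrix partners, and also picked after their values were seen, Dcn, Lum, Bgn and Fmod had no read in any library. Fn1 had 746 reads, Tgfbi 796 and Thbs1 27175 over the 6 libraries, and 560 of the Fn1 reads were in XL45. These 3 did not pass (log2 fold changes 3.33, 0.91 and -0.84). Fibroblasts make all 7, but the reads do not tell which cells they came from. Of 6 osteoblast markers, Ibsp and Dmp1 had no read, and the sums were 0.544 to 0.666 CPM in the LSK-derived group and 0.176 to 0.238 CPM in the GMP-derived group. Of 7 endothelial markers, Emcn and Sox17 had no read, and the sums were 0.363 to 0.903 CPM in the LSK-derived group and 0.0820 to 0.498 CPM in the GMP-derived group. The 8 macrophage markers summed to 84.6 to 133 CPM in the LSK-derived group and 81.4 to 176 CPM in the GMP-derived group. Mrc1 alone passed, and it was higher in the LSK-derived libraries (log2 fold change 1.45). The other tested macrophage markers did not pass and had both signs. Their log2 fold changes were -1.93 (Emr1), -0.275 (Csf1r), 0.93 (Cd68) and 1.36 (Cd163). The part of RNA from cells that express Pdgfrb and Acta2 in the chain differences was not tested.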

How the data were processed

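The authors deposited raw counts, 1 row per gene symbol and 1 column for each of the 6 libraries, with no normalization. Per the labels' protocols, TRIzol was used for the RNA and a TruSeq RNA kit for the libraries. The build mm9 and the tools STAR 2.4, HTSeq 0.6.1 and DESeq2 are named in the submitters' processing notes. The strand setting and annotation are not given in the sources used, so it is not known how reads in overlaps of genes on opposite strands were counted. Members and gene lists were chosen with earlier results of these data known.

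The main test was that of edgeR 4.0.16 under R 4.3.3 (filterByExpr with a minimum count of 10, TMM, robust glmQLFit, glmQLFTest, no covariate) on 13406 genes of the whole table, with Benjamini-Hochberg adjustment over all of them and a threshold of 0.05. The procedure was tested on simulated data. CPM is the count over the library's total of tested genes, scaled by TMM. The approximate SE is the absolute log2 fold change over the square root of F, not a fitted standard error. Same-group libraries differed by far more than sampling noise (chi-square per degree of freedom 10.1 to 53.9), so none is a copy. Lengths and exon overlaps came from GENCODE M21, gene order and promoters from RefSeq, both on GRCm38, and served for description only.

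The naming rule took every tested chain, untested chains with at least 10 reads, and of each list the 4 called genes with the smallest p (or the 2 most abundant tested ones where fewer than 2 were called), plus Serpinh1, P4ha1, P4hb, Plod1, Itgb1, Ddr1 and Lair1; further names, such as the chains with fewer than 10 reads and the neighbours of called chains, were chosen after their values were seen. Ratios against few reads carry exact 95% intervals of the counting error. Alternatives were other scalings, no filter, DESeq2 1.42.0, limma 3.58.1 voom with and without sample weights, no robust estimation, and leaving out each library.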

Additional observations from a re-analysis of the deposited data

How the results depend on the processing

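Over 13 alternative fits, Col6a3, Col19a1, Col20a1, Col5a3 and Col7a1 were called lower in all 13 and Col4a2 higher in 10. Lower chains numbered 5 with all libraries, 8 by DESeq2, which added Col1a1, Col4a5 and Col6a4, and 5 to 8 when 1 library was left out, with 8 without XG5. Higher chains numbered 1, 2 by limma voom with sample weights, which added Col9a3, and 0 to 1 when 1 library was left out, with 0 without XL44, XL46 or XG19. Higher handling genes numbered 7, 11 by DESeq2, and 6 to 9 when 1 library was left out. Lower handling genes numbered 9, and 13 by DESeq2 and by limma voom with sample weights. They numbered 7 to 14 when 1 library was left out, with 14 without XL45. The counts over all genes moved with the fit as well. Lower genes numbered 1867 in the main fit, 2303 by DESeq2 and 973 to 1944 when 1 library was left out. Higher genes numbered 1577 in the main fit, 1983 by DESeq2 and 770 to 1523 when 1 library was left out. The cause of these moves was not tested. Of 467 values for 36 named genes, 442 stayed on their side of the threshold, 20 fell short of it, 5 newly passed and 0 reversed a call. A change of sign came in 12 values of 4 chains that passed in neither fit (Col11a2, Col5a1, Col5a2 and Col23a1). Where leaving out a library left a pair, the spread was pooled over both groups. No paired analysis was possible because the 2 groups share no replicate number. Most untested chains had few reads, which limits their precision; Col4a5 and Col4a6 were kept out by low counts in all libraries but XG11 and XG19.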
